A study of Mus musculus with 4 samples.

Results

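Proteins that leave the cell are threaded into the endoplasmic reticulum (ER), folded and glycosylated there, checked, and packed into COPII vesicles for the Golgi. When unfolded protein builds up, the ER sensors Ern1 (IRE1), Atf6 and Eif2ak3 (PERK) start the unfolded protein response, and the factors Xbp1 and Atf6 then raise the genes of chaperones, disulfide isomerases and ER-associated degradation (ERAD, the route by which misfolded proteins are pulled out and destroyed). Bone-forming cells and chondrocytes secrete large amounts of collagen and rely on a branch of their own, with the ER-bound factors Creb3l1 (OASIS) and Creb3l2 (BBF2H7). The question of the comparison is whether this machinery follows the matrix genes, which were far lower in 1 of the areas of bone studied here.

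The genes described are 38 mouse genes of ER folding and secretion, chosen by name, of which 37 had at least 1 probe set annotated to them alone, out of 18193 genes measured. The remaining gene, Fkbp10, was not analysed here. The 37 genes had 83 probe sets, and each gene was given the mean of its probe sets.

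RNA came from cells sorted out of the bone marrow of adult NOD/SCID mice (NOD.CB17-Prkdc scid/J). The design text calls these mice recipients and the sorted cells osteoblasts. The sort kept cells with the integrin CD51 and without CD45, CD31, Sca1 and lineage antigens. Cells from the trabecular bone area were compared with cells from the long bone area, with 2 arrays each, in 1 strain and with no treatment or age beyond adult named. Scid mice cannot complete lymphocyte receptor rearrangement, and both areas share that background. The labels call the arrays biological replicates without saying which mice they came from, so p-values measure the spread between these samples, which may be technical, and it is not stated whether animals were pooled. In a bulk sample fewer cells of a type and less RNA per cell cannot be told apart.

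Each value is a log2 expression from which the 4-array median of its probe set has been taken away, so differences can be read and levels cannot. Long bone array 2 stood apart, since 688 of its 18193 genes lay 2-fold or more away from that median, where the remaining arrays had 85 to 143 such genes. For Gapdh, whose control probe sets read both ends of the transcript as a sign of RNA integrity, the 5' value less the 3' value was -1.16 on it and -0.086 to 0.31 elsewhere. The same measure for Actb was -0.037 on it, within the -0.068 to 0.44 of the other arrays. Spiked hybridisation controls, which are added in equal amounts, had a median difference of -0.39 between the areas, trabecular minus long bone. Of 8 reference genes the median difference was 0.44, so the reference genes and the spikes pointed in opposite directions. The number step of the stored values, taken here as a trace of the level before centring, was that of bright signals for at least 1 probe set in 32 of the 37 genes (86.5%) and in 54.5% of all genes. Of the osteoblast markers, Runx2, Bglap and Bglap2 were not analysed here, and for each of the 7 others the trabecular pair lay wholly below the long bone pair. Centred values do not say whether a gene is on, so neither these markers nor those of other cells could be called present or absent.

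Several of the genes carry the letters by which ER stress factors are known to find their promoters. These stretches are shown because they describe members by a measure that does not use the arrays. A gene without an exact match may still be a stress target. The ER stress response element ERSE, which is CCAAT and CCACG with 9 free bases between them, is bound by Atf6 and Xbp1 with the factor NF-Y. RefSeq promoter windows of GRCm38.p6, with 250 bases before the start and 50 from it on, were found for 31 of the 37 genes and searched on both strands for exact matches. ERSE was in 7 of the 31 genes (22.6%), against 37 of 27025 genes (0.137%) with a window of the same length. Each match is printed with up to 20 bases on either side, 5′ to 3′, with the fixed letters of the element in capitals.

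Hspa5, chr2:34772005-34772063, plus strand: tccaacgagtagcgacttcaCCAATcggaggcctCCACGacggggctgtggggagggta
Hsp90b1, chr10:86705513-86705571, plus strand: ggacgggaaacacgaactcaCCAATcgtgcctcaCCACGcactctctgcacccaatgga
Hsp90b1, chr10:86705618-86705676, minus strand: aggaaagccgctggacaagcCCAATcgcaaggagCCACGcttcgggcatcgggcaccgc
Calr, chr8:84847055-84847113, plus strand: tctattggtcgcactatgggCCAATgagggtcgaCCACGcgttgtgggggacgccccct
Canx, chr11:50325780-50325838, minus strand: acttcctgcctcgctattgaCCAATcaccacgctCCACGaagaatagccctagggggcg
Pdia6, chr12:17266471-17266529, plus strand: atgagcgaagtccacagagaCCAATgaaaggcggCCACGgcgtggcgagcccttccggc
Dnajc3, chr14:118937807-118937865, plus strand: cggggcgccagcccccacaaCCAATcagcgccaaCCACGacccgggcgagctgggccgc
Syvn1, chr19:6046512-6046570, plus strand: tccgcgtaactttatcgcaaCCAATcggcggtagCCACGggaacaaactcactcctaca

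The matches lay between positions -212 and -26 from the start. Hsp90b1 had 2, one on each strand. The Hspa5 promoter, the classic example of the element, is shown in full up to the base before the start (chr2:34771840-34772089, plus strand), with the match in capitals.

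Hspa5 promoter: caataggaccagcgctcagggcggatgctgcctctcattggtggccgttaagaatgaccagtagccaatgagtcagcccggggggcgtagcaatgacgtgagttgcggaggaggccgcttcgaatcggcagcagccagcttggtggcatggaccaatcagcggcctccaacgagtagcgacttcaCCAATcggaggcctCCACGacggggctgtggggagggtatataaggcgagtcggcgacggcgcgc

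A related element, ERSE-II (ATTGG and CCACG with 1 free base between them), began at position -52 in Herpud1 and at position 7, just after the start, in Dnajb11. It was in 12 of 27025 genes (0.0444%). The element UPRE (TGACGTGG), which Xbp1 and the Creb3 family can bind, was in Kdelr3, Sec24d and Sec23a among the 31 genes (9.68%) and in 0.714% of all genes. None of these UPRE matches overlapped a match of the other motifs. Herpud1 is shown as the member with the largest difference on the trabecular side, and Kdelr3 and Sec24d as those with the largest on the long bone side.

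Herpud1, chr8:94386357-94386407, plus strand: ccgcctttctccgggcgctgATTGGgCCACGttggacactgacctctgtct
Kdelr3, chr15:79516358-79516405, minus strand: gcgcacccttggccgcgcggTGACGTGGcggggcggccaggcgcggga
Sec24d, chr3:123267450-123267495, plus strand: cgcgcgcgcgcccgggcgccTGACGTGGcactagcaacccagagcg

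The 38 genes of matrix cargo and collagen processing that had a window held 0 matches to the 3 motifs. A match is a description of letters and does not show that a factor was bound.

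In the values as scaled by the authors, the machinery as a whole did not show the deficit of the matrix genes. Of the 37 genes 25 had a higher mean in the trabecular area (67.6%, against 54.6% of all genes) and 12 a lower one (45.4% of all genes), with a median log2 difference of 0.21 against 0.029 over all genes. Of 39 genes of matrix cargo, collagens and other secreted proteins of bone and cartilage, 38 were lower and 1 was higher, with a median of -2.00. In 17 of the 37 genes both trabecular arrays lay above both long bone arrays (45.9%, background 29.9%), and in 6 both lay below (16.2%, background 21.4%). Genes with a bright probe set lay higher in general, and over bright probe sets alone 26 of 32 members were higher (81.2%, against 65.9% of 9922 genes), with medians of 0.26 and 0.15. No overlap on the higher side was then found for 16 members (50%, background 39.3%).

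No single gene of the group passed the test over all genes. With limma 0 of 18193 genes (0%) had an adjusted p under 0.05, and the 37 genes had 0 as well. At an unadjusted p under 0.05 there were 8 of the 37 genes on the higher side (21.6%, background 10.8%) and 1 on the lower side (2.7%, background 4.62%). All 37 differences were under 2-fold. In simulated data 1 of 67 genes given a 2-fold difference passed the adjusted threshold, so the lack of calls among the 37 says little. The 8 came to 3 with the arrays paired by replicate number (10.3% of all genes) and to 4 after quantile normalization (9.84% of all genes). The median difference was 0.087 without trabecular array 2 and 0.33 without trabecular array 1. When each array was centred on the 8 reference genes, which moves the median of all genes by -0.44 to -0.41, the median of the 37 genes was -0.23 with 6 higher, and that of matrix cargo -2.44. The 6 were Dnajb9, Dnajb11, P4hb, Herpud1, Sar1a and Sec23a. The sign for the machinery thus depended on the scaling, and so did every statement that a gene or list with a smaller difference than 0.44 lay higher. Its distance from all genes and from matrix cargo cannot depend on a shift shared by all genes, and that distance was not tested.

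**Figure D1:**
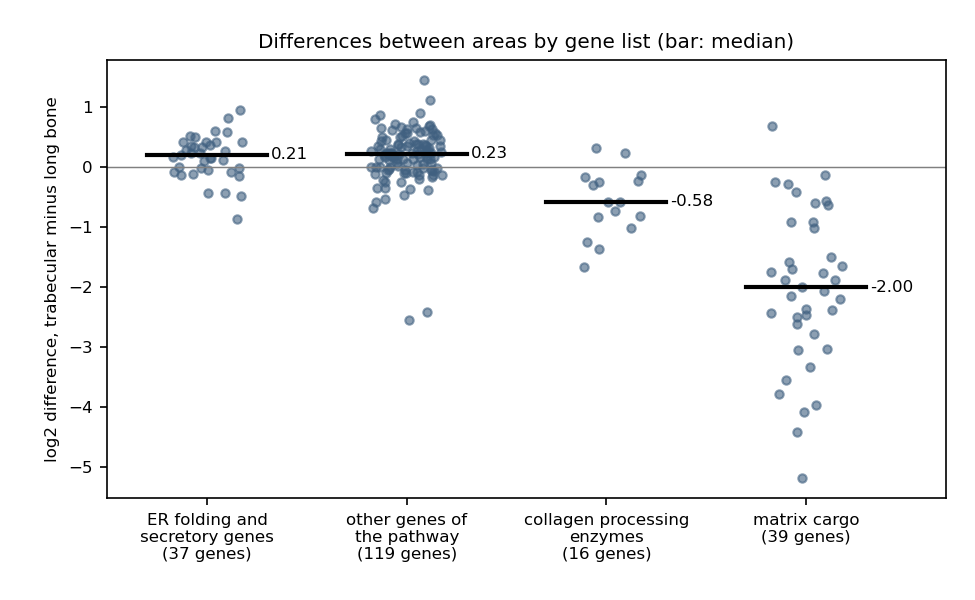
Log2 difference between the areas (trabecular minus long bone) for each gene of 4 lists; each point is 1 gene and the bar is the median of the list. The 37 ER and secretory genes and the 119 other genes of the pathway have medians of 0.21 and 0.23. The collagen processing genes, labelled as enzymes though not all are, have -0.58 and matrix cargo -2.00.

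The sensors and transcription factors did not share a direction. Xbp1, whose spliced form is the main activator of ER capacity, had log2 values of 0.078 and 0.10 in the trabecular area and -0.094 and -0.40 in the long bone area (array 1 first, here and throughout), a difference of 0.34 (SE 0.16, 95% interval -0.074 to 0.75, adjusted p = 0.374). Both trabecular arrays lay above both long bone arrays, and long bone array 2 was the lowest. Atf6, a factor that is cut free of the ER membrane under stress, had 0.14 and 0.060 against -0.057 and -0.41, in the same order, with a difference of 0.33 (SE 0.17). Without long bone array 2 these differences were 0.18 and 0.16. Of the 4 Xbp1 probe sets 1 was at 0.0041 with overlap, and the others ran from 0.24 to 0.63 without overlap. The arrays measure total Xbp1 transcript, so the share that Ern1 had spliced was not measured.

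Ern1, the kinase and nuclease that splices Xbp1, was close to level, at -0.095 and -0.020 in the trabecular area and 0.061 and 0.10 in the long bone area. The areas did not overlap, but its 5 probe sets had differences from -0.50 to 0.11, and the one read as bright was the highest. Ddit3 (CHOP), the factor that pushes stressed cells towards death, had 0.19 and -0.17 against 0.13 and 0.14 and overlapped between the areas. Its 2 probe sets pointed in opposite directions, at 0.42 and -0.67, so its mean of -0.13 stands for neither.

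Creb3l1, the collagen-linked factor of osteoblasts, lay on the other side from Xbp1. It had -0.092 and -0.22 against 0.092 and 0.45, a difference of -0.43 (SE 0.17, 95% interval -0.89 to 0.029, adjusted p = 0.341). The areas did not overlap, and the difference was -0.25 without long bone array 2. Creb3l2, its relative in cartilage, did not separate the areas, with -0.12 and 0.12 against 0.31 and -0.29. The long bone arrays were its highest and its lowest, so its difference turned from -0.31 without long bone array 2 to 0.29 without long bone array 1.

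**Figure D2:**
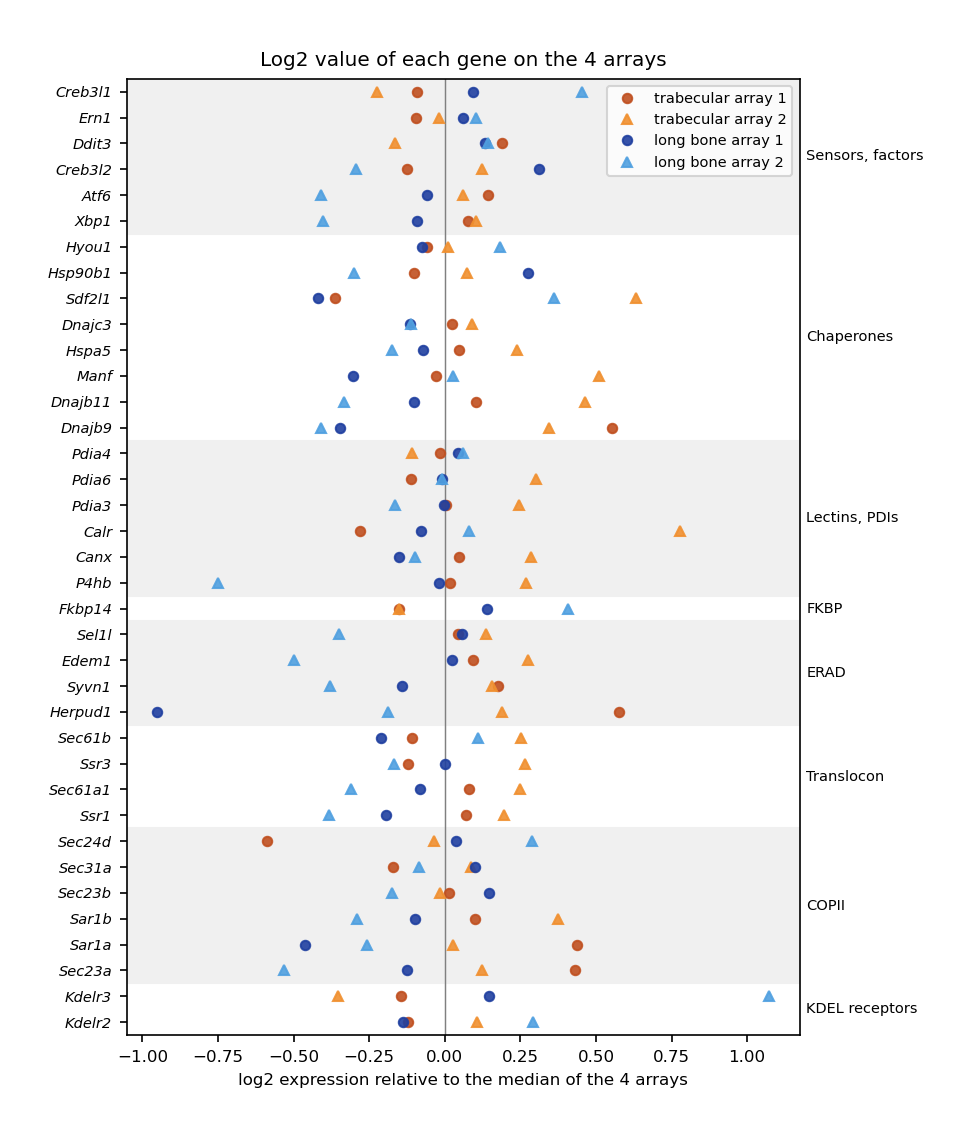
Log2 value of each of the 37 genes on the 4 arrays, after subtraction of the 4-array median; red and orange marks are trabecular arrays and blue marks long bone arrays, grouped by role. Both trabecular marks lie to the right of both long bone marks in 17 rows (45.9%, background 29.9%). Creb3l1, Ern1, Pdia4, Fkbp14, Sec24d and Kdelr3 have both long bone marks on the right (16.2%, background 21.4%). Long bone array 2 is the lowest array for 18 of the 37 genes and for 32.4% of all genes.

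Among the chaperones Dnajb9 and Dnajb11, DnaJ partners of BiP, had the largest differences. Dnajb9 (ERdj4), a co-chaperone that directs BiP to misfolded proteins and to Ern1, was at 0.55 and 0.34 on the trabecular arrays and -0.34 and -0.41 on the long bone arrays. The pairs were tight and far apart, which gave a 1.77-fold higher value (log2 difference 0.83, SE 0.14, 95% interval 0.46 to 1.19, adjusted p = 0.24), the lowest p of the 37 genes at 0.00258 before adjustment. It ranged from 0.72 to 0.93 with 1 array left out and was 0.38 after centring on the reference genes. Dnajb11 (ERdj3), which hands unfolded chains to BiP, had 0.10 and 0.46 against -0.10 and -0.33 and a difference of 0.50 (SE 0.18), or 0.32 without trabecular array 2. Dnajc3 (p58IPK), which also works with BiP, differed by 0.17, with no overlap in the mean but with 1 of its 5 probe sets on the other side.

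Hspa5 (BiP), the central Hsp70 of the ER, was at 0.049 and 0.24 against -0.072 and -0.17, a difference of 0.27 (95% interval -0.097 to 0.63), or 0.17 without trabecular array 2. All 3 of its probe sets had both trabecular arrays above both long bone arrays, at 0.16, 0.41 and 0.23. Its Hsp90 counterpart Hsp90b1 (GRP94) had -0.10 and 0.072 against 0.27 and -0.30, with the long bone arrays outside the trabecular pair on both sides, and its 2 probe sets gave 0.28 and -0.28. Hyou1 (GRP170), which recharges BiP with ATP, was at -0.076 and overlapped. Sdf2l1 and Manf, small stress-induced ER proteins, spread widely within each area. Sdf2l1 was at -0.36 and 0.63 against -0.42 and 0.36 and Manf at -0.029 and 0.51 against -0.30 and 0.029, which gave differences of 0.16 and 0.38 with overlap. Without trabecular array 2 they were at -0.33 and 0.11.

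Of the lectins and disulfide isomerases 5 of 6 had a higher mean in the trabecular area. P4hb, the disulfide isomerase that is also the beta subunit of collagen prolyl hydroxylase, was at 0.018 and 0.27 on the trabecular arrays and -0.018 and -0.75 on the long bone arrays. The difference of 0.53 (SE 0.28) came mainly from long bone array 2, and was 0.16 without it. Canx (calnexin), the membrane-bound lectin that holds glycoproteins until they are folded, had 0.046 and 0.29 against -0.15 and -0.098, a difference of 0.29 with no overlap, or 0.17 without trabecular array 2. Of the 3 Canx probe sets, the one at 0.12 overlapped between the areas. Its soluble partner Calr (calreticulin) had -0.28 and 0.78 against -0.079 and 0.079. The trabecular arrays were its lowest and its highest, and the difference of 0.25 (SE 0.38) turned to -0.28 without trabecular array 2. The isomerases Pdia3, Pdia6 and Pdia4 were at 0.21, 0.10 and -0.11, and the probe sets of Pdia3 and of Pdia4 pointed both ways. Without trabecular array 2 these genes were at 0.087, -0.10 and -0.067. In all, 9 of the 24 members with several probe sets had probe sets of both signs.

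Fkbp14, a prolyl isomerase of the ER that acts on collagen, stood with Creb3l1 on the long bone side. It was at -0.15 and -0.15 on the trabecular arrays and 0.14 and 0.41 on the long bone arrays, a difference of -0.42 (SE 0.15, adjusted p = 0.304). It was the 1 gene with an unadjusted p under 0.05 on the lower side. The value rests on the probe set at -0.85, since the other was at -0.00051; neither was read as bright, and folds of dim signals are compressed.

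All 4 ERAD genes had a higher mean in the trabecular area. Herpud1, which gathers the degradation complex and is among the most stress-inducible ER genes, was at 0.57 and 0.19 on the trabecular arrays and -0.95 and -0.19 on the long bone arrays, the largest difference of the 37 genes (1.93-fold, log2 difference 0.95, SE 0.31, 95% interval 0.13 to 1.77, adjusted p = 0.291). Long bone array 1 was by far the lowest, and without it the difference was 0.57. Both probe sets had no overlap, at 1.02 and 0.88. Syvn1 (HRD1), the ubiquitin ligase of the complex, had 0.17 and 0.16 against -0.14 and -0.38, a difference of 0.43 (SE 0.14), and its 2 probe sets gave 0.41 and 0.44. Its scaffold Sel1l and the mannose lectin Edem1 were at 0.24 and 0.42. The areas overlapped for Sel1l and not for Edem1. Both were lowest on long bone array 2, and without it they were at 0.035 and 0.16. The Edem1 value rests on the probe set at 0.84, since the other was at 0.00995 with overlap.

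The entry gate into the ER pointed the same way. Sec61a1, the pore of the translocation channel, was at 0.079 and 0.25 against -0.081 and -0.31, a difference of 0.36 (SE 0.15), and all 6 of its probe sets were on the higher side, from 0.21 to 0.61. Ssr1, the alpha subunit of the translocon-associated complex, had 0.070 and 0.20 against -0.19 and -0.38 and a difference of 0.42 (SE 0.14). Its 4 probe sets ran from 0.054 to 0.98, and those at 0.054 and 0.40 overlapped between the areas. The small channel subunit Sec61b and the gamma subunit Ssr3 were at 0.12 and 0.15 with overlap, and at -0.058 and -0.041 without trabecular array 2.

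**Figure D3:**
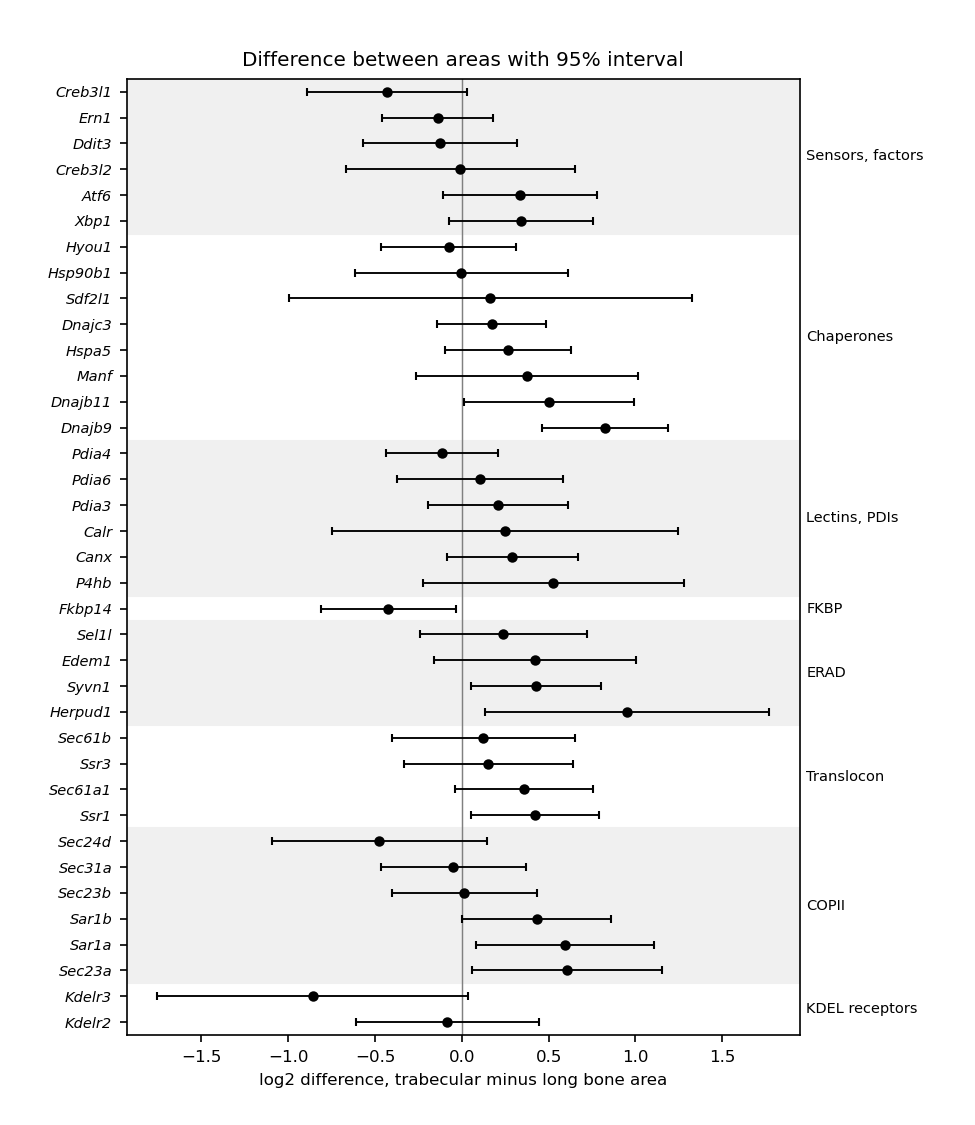
Log2 difference between the areas (trabecular minus long bone) of each of the 37 genes with its 95% interval from the limma fit, grouped by role. The interval includes 0 for 28 of the 37 genes; Herpud1 and Dnajb9 lie farthest on the trabecular side and Kdelr3 and Sec24d on the long bone side.

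COPII genes split within the coat. Sar1a and Sar1b, the paralogous GTPases that start coat assembly, had 0.44 and 0.026 against -0.46 and -0.26 and 0.099 and 0.37 against -0.099 and -0.29, with differences of 0.59 (SE 0.19) and 0.43 (SE 0.16). Sec23a, the inner coat subunit that chondrocytes and bone cells need for collagen, was at 0.43 and 0.12 against -0.12 and -0.53, a difference of 0.61 (SE 0.21). None of these 3 overlapped between the areas in the mean of the probe sets, though 1 of the 2 Sar1a probe sets, at 0.57, did. Sar1a was at 0.39 without trabecular array 1, and Sec23a at 0.40 without long bone array 2. Its paralogue Sec23b was level at 0.015, and so was the outer coat subunit Sec31a at -0.049, both with overlap.

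Sec24d, the cargo-binding subunit of the coat that is tied to procollagen export, lay on the long bone side. It was at -0.59 and -0.037 on the trabecular arrays and 0.037 and 0.29 on the long bone arrays, a difference of -0.48 (SE 0.23, 95% interval -1.10 to 0.14, adjusted p = 0.392). The areas did not overlap, and without trabecular array 1 the difference was -0.20.

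Kdelr3, a receptor that returns escaped ER proteins from the Golgi, had the largest difference on the long bone side. It was at -0.15 and -0.35 against 0.15 and 1.07, 1.81-fold lower in the trabecular area (log2 difference -0.86, SE 0.34, 95% interval -1.75 to 0.037, adjusted p = 0.334). Long bone array 2 was far above the rest, and without it the difference was -0.40. Without long bone array 1 it was -1.32, and Kdelr3 was then the 1 gene of the 37 that passed the adjusted threshold, in a fit that called 1603 of 18193 genes and assumes that the lone long bone array varies like the trabecular pair. Its probe set was not read as bright. Kdelr2 was at -0.12 and 0.11 against -0.14 and 0.29 with overlap, and its 2 probe sets pointed in opposite directions at -0.49 and 0.32.

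Markers of other cells moved with some of these values. All 7 chondrocyte markers, 6 of them also in the matrix lists, were lower in the trabecular area without overlap (median difference -3.04). Creb3l1, Ern1, Pdia4, Fkbp14, Sec24d and Kdelr3 lay on that side without overlap, and 17 of the 37 members lay on the other. The medians of the 7 markers were -1.42 and -1.61 against 1.66 and 1.61. Of 6 macrophage markers 2 were lower and 1 higher without overlap, with a median difference of -0.13. For the 6 reticular stroma markers the median was 0.14 and -0.84 in the trabecular area and -0.13 and 1.83 in the long bone area, with 1 of 6 separating the areas. They were highest on the array on which Kdelr3, Creb3l1 and Fkbp14 were highest. That was long bone array 2, on which 8 of the 37 members and 35.2% of all genes had their highest value. The 5 promyelocyte markers, most of them genes of granule proteins that neutrophil precursors make in the ER, had medians of -0.93, 0.69, -0.26 and 0.26, with 0 of 5 separating the areas. Calr, Sdf2l1, Sec24d and Manf, the 4 genes with the widest spread between the trabecular arrays, picked after their values were seen, were likewise higher on array 2 than on array 1 in both areas. Genes next by that spread did not all do so. Sar1a was at 0.44 and 0.026 on the trabecular arrays, and Ssr3 at 0.0023 and -0.17 on the long bone arrays. The 8 neutrophil markers had medians of 0.028, 0.0048, -0.0011 and -0.21, with 7 of 8 higher in the trabecular area and 4 without overlap. The 13 B and plasma cell markers had -0.069, -0.036, -0.060 and 0.22, with 3 lower without overlap (23.1%, background 21.4%). Medians of the 5 erythroid markers were -0.0032, 0.018, -0.086 and 0.31, with 1 higher without overlap. Those of the 5 endothelial markers were 0.031, -0.031, 0.023 and -0.056, with 1 higher and 1 lower without overlap. Over all 37 members 25 were higher on trabecular array 2 than on array 1, and 18 were higher on long bone array 2 than on array 1. The part of these cells in the results was not tested.

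**Figure D4:**
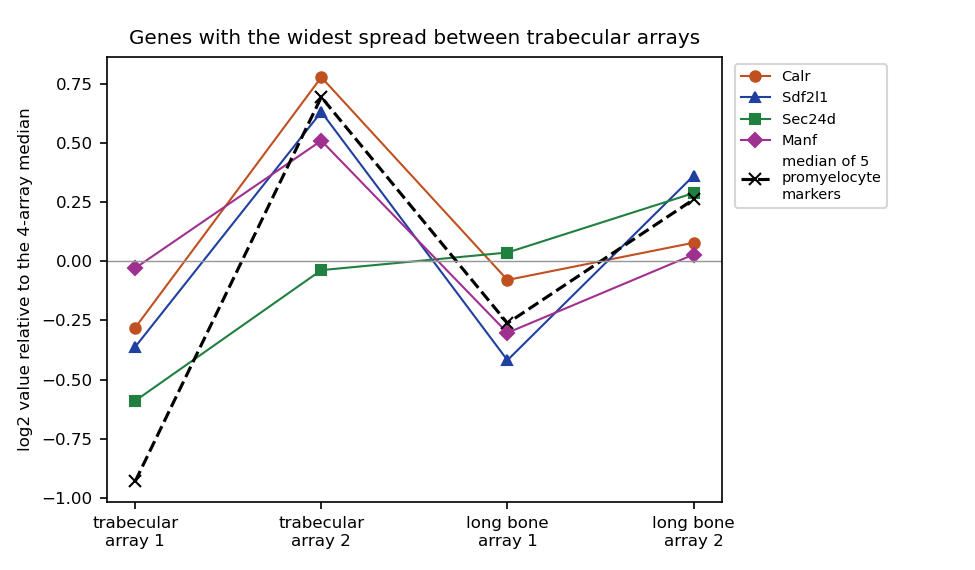
Log2 value of Calr, Sdf2l1, Sec24d and Manf on each of the 4 arrays, with the median of the 5 promyelocyte markers as a dashed line. All 5 lines are higher on array 2 than on array 1 in each area. The 4 genes were picked for their wide step between the trabecular arrays, so that step is no result, and 4 arrays are too few for a correlation.

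By promoter letters the members gave no clean division. The 7 genes with ERSE had a median difference of 0.25, with 6 higher and 1 lower, and the 24 genes with a window but no ERSE had 0.19, with 16 higher and 8 lower. The 2 genes with ERSE-II, Herpud1 and Dnajb11, were at 0.95 and 0.50. They are counted among the 24, so the split by ERSE does not part stress targets from other genes. Of the 3 with UPRE, Kdelr3 and Sec24d were on the long bone side and Sec23a on the trabecular side. Beyond the 37 genes, 13 measured genes held ERSE, with a median of -0.0031 and 6 higher.

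**Figure D5:**
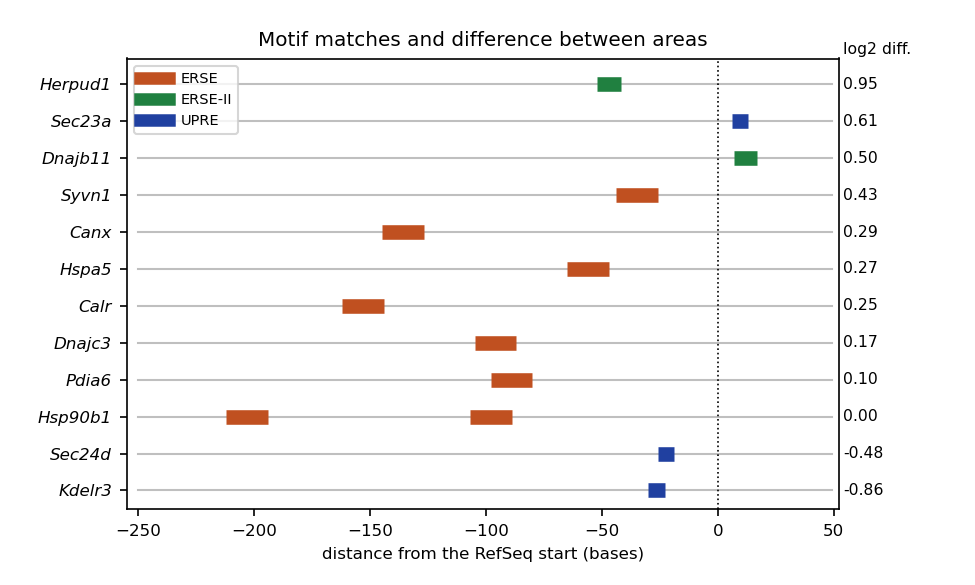
Position of each motif match from the RefSeq start, in bases, in the 12 genes that hold one; grey lines are the windows searched, and the numbers on the right are the log2 differences between the areas. ERSE matches lie in genes from Syvn1 at 0.43 to Hsp90b1 at -0.0028, and UPRE matches in Sec23a, Sec24d and Kdelr3.

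The rest of the pathway was described from lists of 122 further genes, 119 of them measured. In the trabecular area 87 of these were higher and 32 lower. Their median difference was 0.23, or -0.21 with 28 higher after centring on the reference genes, and 60 (50.4%) against 14 (11.8%) had no overlap on the higher and the lower side. The shares of all genes were 29.9% and 21.4%. At an unadjusted p under 0.05 there were 19 higher (16%, background 10.8%) and 3 lower (2.52%, background 4.62%), and 0 passed the adjusted threshold. These genes were not chosen by their values, but the lists were drawn up with earlier results of these data known.

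Targeting and translocation gave the most even picture in the values as scaled by the authors, with 18 of 19 genes higher and 15 without overlap (78.9%, background 29.9%). The largest were Ssr2 (0.73), the beta subunit of the complex that holds Ssr1, the translocation helper Tram1 (0.69) and the signal peptidase subunit Spcs2 (0.65). Ssr2 was at 0.38 without trabecular array 2, and Tram1 and Spcs2 were each at 0.34 without long bone array 2. After centring on the reference genes, only Ssr2, Tram1, Spcs2, Srp68 and Sec63 of the 19 stayed on the higher side. The COPI coat, which carries proteins back from the Golgi, had 13 of 16 genes higher. Copg2 was at 1.46 (0.64 without long bone array 2), the SNARE Stx5a at 0.87 and Copz1 at 0.65, while Copz2, the other zeta subunit, was at -0.58. Without long bone array 2 Copz1 and Copz2 were at 0.40 and -0.38. Of other COPII and cargo receptor genes 17 of 23 were higher, among them Sec22b (0.63), Tmed10 (0.59) and Ergic3 (0.54), with Lman1, the receptor of clotting factors, at -0.25. Without long bone array 2 Sec22b was at 0.41 and Tmed10 at 0.25, and Lman1 was at -0.15 without trabecular array 1. Kdelr1, the third KDEL receptor, was at 0.38, and is named as the remaining member of that family, after its value was seen.

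Other ERAD genes were higher in 9 of 12 cases. The ubiquitin-conjugating enzyme Ube2j1 was at 0.55 and 0.31 on the trabecular arrays and -0.67 and -0.70 on the long bone arrays, a difference of 1.12 (SE 0.14, adjusted p = 0.203). The channel gene Derl1 and its partner Selenos were at 0.81 and 0.46, and the lectin Erlec1 at -0.67 (-0.38 without trabecular array 1). Of other genes of the stress response 9 of 14 were higher, led by the sensor Eif2ak3 (0.91), Creb3 (0.71) and Trib3 (0.66, or 0.36 without trabecular array 1). Nupr1, a small stress-induced nuclear protein, was at -0.80 and -0.89 against 0.80 and 2.59, a difference of -2.54 (SE 0.61, adjusted p = 0.252) that was -1.64 without long bone array 2. Ern2 and Creb3l3 were at -0.46 (-0.22 without that array) and -0.11. Oligosaccharyltransferase subunits, which add the N-linked sugars, were even, with 6 of 11 higher and a median of 0.0017, Stt3b at 0.30 and Rpn1 at -0.35 (-0.14 without trabecular array 1).

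Other folding factors were mixed, with 15 of 24 higher and a median of 0.055. Erp44, which holds back unassembled proteins, was at 0.75, the oxidase Ero1a at 0.67 and Cnpy3 at 0.58, and without long bone array 2 Ero1a and Cnpy3 were at 0.14 and 0.27. Fkbp9, a prolyl isomerase related to Fkbp14 and Fkbp10, stood apart at -0.96 and -1.10 on the trabecular arrays and 0.96 and 1.81 on the long bone arrays, 5.33-fold lower (log2 difference -2.41, SE 0.31, adjusted p = 0.203). The difference was -1.99 without long bone array 2. Prdx4, the peroxiredoxin of the ER, and Fkbp7 were at -0.53 and -0.37, and at -0.12 and -0.16 without that array.

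By their median the genes of collagen processing, enzymes and their helpers, lay between the general machinery and its cargo. Of 16 measured, 14 were lower and 2 higher in the trabecular area, 11 without overlap on the lower side (68.8%, background 21.4%), with a median of -0.58 (-0.22 without long bone array 2). Pcolce, which helps trim procollagen, was at -1.67 (-0.78 without long bone array 2), the collagen chaperone Serpinh1 (HSP47) at -1.37 and the lysyl hydroxylase Plod2 at -1.23. Plod3 and Plod1, the other lysyl hydroxylases, were at 0.33 and 0.25, on the higher side with no overlap, and Plod1 was at 0.15 without trabecular array 1. Adjusted over all genes, 0 of the 16 passed. Creb3l1, Fkbp14, Sec24d and Kdelr3 shared their side, and this grouping of the 4 was made after their values were seen. It leaves out Ern1 (-0.14) and Pdia4 (-0.11), which also lay there without overlap. P4hb (0.53) and Sec23a (0.61), which also serve collagen, lay on the trabecular side without overlap, and Creb3l2 was level at -0.0083.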

How the data were processed

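The deposited values are log2 expression, made by the authors with RMA per the submitters' processing notes (no version), and then centred, since in each of 45101 probe sets the median of the 4 values is 0 within rounding. What did the centring is not given in the sources used here. Although a human chip is named in the design text, the probe set names belong to a mouse chip. Of 45037 non-control probe sets 34945 were annotated to 1 gene, 932 to several and 9160 to none, and the first gave 18193 genes, each the mean of its probe sets. RefSeq gene IDs (GRCm38.p6) matched 34741 of these probe sets and changed 0 symbols.

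Trabecular minus long bone was tested two-sided for all genes at once (limma 3.58.1 under R 4.3.3, with lmFit and eBayes on 2 residual degrees of freedom), with Benjamini-Hochberg adjustment at 0.05. The code was tested on simulated data. With 2 arrays a side, exact permutation of a single gene reaches no p below 0.333. Motifs were searched with Python 3.11.15 in the RefSeq promoter table. Per array values are printed for the members with the largest differences in each role and for the sensors, and up to 3 genes per direction of the other lists. A probe set was read as bright where its values of at least 0.001 were whole multiples, within 0.15 of a step, of the step of 32-bit numbers at log2 levels of 8 and above, which a dimmer probe set can meet by chance. The members and lists were chosen with earlier results of these data known.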

Additional observations from a re-analysis of the deposited data

How the results depend on the processing

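The direction held for all 37 members with the median over probe sets and with probe sets without suffixes of shared sequence; the replicate block, the crossed pairing and the robust prior change only the errors of this balanced design, not the differences. In total 0 members passed the adjusted threshold in any fit except 1, Kdelr3, without long bone array 1. Genes called over all genes were 5 after quantile normalization, 125 after centring on the reference genes, 1 with those suffixes dropped, and 0 to 1603 with 1 array left out. Members at an unadjusted p under 0.05 were, on the higher side, 3 with the replicate block, 4 after quantile normalization, 0 after reference centring, 5 with suffixes dropped, 5 with bright probe sets alone and 3 to 12 with 1 array left out. On the lower side there were 0 with the replicate block (3.2% of all genes), 2 with the crossed pairing (4.97%) and 3 after quantile normalization (8.95%). Centring on all genes gave 3 (5.87%), reference centring 9 and bright probe sets alone 0 (2.89% of the genes in that fit). Members without overlap were 1 higher and 19 lower after reference centring, 3 lower with bright probe sets alone, and 7 to 10 lower with 1 array left out, where the shares of all genes were 4.55% and 69%, 15.5%, and 28.6% to 40.4%. At an unadjusted p under 0.05 reference centring had 1.13% of all genes higher and 41.5% lower. The share of all genes on the higher side was 10.5% with suffixes dropped. With bright probe sets alone it was 13.8% of the 9922 genes in that fit, beside 5 of 32 members. The median over all genes was -0.41 after reference centring. The median over the members was -0.23 after reference centring and 0.087 to 0.33 with 1 array left out.

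Quantile normalization turned Sec23b to -0.078, centring on all genes to -0.0090, and bright probe sets alone turned Ern1 to 0.11 and Hsp90b1 to 0.28. Reference centring turned 19 members: Xbp1 -0.10, Atf6 -0.11, Hspa5 -0.17, Dnajc3 -0.27, Sdf2l1 -0.28, Manf -0.064, Calr -0.19, Canx -0.15, Pdia3 -0.23, Pdia6 -0.34, Sel1l -0.20, Syvn1 -0.015, Edem1 -0.018, Sec61a1 -0.082, Sec61b -0.32, Ssr1 -0.019, Ssr3 -0.29, Sec23b -0.43, Sar1b -0.011. With 1 array left out these ranges crossed 0: Calr -0.28 to 0.78, Creb3l2 -0.31 to 0.29, Ddit3 -0.30 to 0.052, Hsp90b1 -0.29 to 0.28, Hyou1 -0.21 to 0.054, Kdelr2 -0.30 to 0.13, Pdia6 -0.10 to 0.31, Sdf2l1 -0.33 to 0.66, Sec23b -0.14 to 0.17, Sec31a -0.18 to 0.080, Sec61b -0.058 to 0.30, Ssr3 -0.041 to 0.35. The cause was not tested.

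Same-numbered arrays did not deviate together (correlation of deviations -0.115), and the labels do not say that the numbers pair samples; the crossed pairing was added after seeing the data. With 2 arrays per area, 28 of 37 intervals include 0. For 5 members no probe set was read as bright, and whether signal level bears on the width of the intervals was not tested.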
